A study of Mus musculus with 5 samples.

Results

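Mouse gene clusters, on chromosomes 2, 4 and 13, hold arrays of KRAB zinc finger genes, and their CpG methylation was measured in sperm by whole-genome bisulfite sequencing. The clusters were taken as chr2:175000000-178000000, chr4:145200000-147900000 and chr13:65000000-67800000 of mm10. A CpG entered the measurement where each of the 5 libraries covered it with at least 5 reads, both strands summed, and a 1000-bp tile entered where it held at least 3 such CpGs. This gave 969 tiles in the clusters, 103 on chromosome 2, 528 on chromosome 4 and 338 on chromosome 13, of 321659 tiles in all. Old sperm came from C57BL/6 mice aged 18 months (old replicates 1 and 2), and young sperm from C57BL/6 mice aged 2 months (young replicates 1 to 3). In both groups sperm swam out of the cauda epididymis, the end of the duct that stores mature sperm, and the labels name no treatment or genetic change. They do not say whether each library is a separate animal, and the p-values cover no more than the variation seen among these 5. The series compared methylation between the ages. Young replicate 3 stood apart from the other libraries, being lower at highly methylated tiles and higher at weakly methylated ones. The start windows of the germline gene Ddx4 and the imprinted gene Snrpn were highly methylated in all 5 libraries, while background gives unmethylated starts in sperm. Those of the imprinted genes Nnat, at 9.86% to 25.3%, and Peg3, at 13.3% to 47.6%, were lower. Whether these windows hold the CpGs of the germline promoter or of the imprinted region was not tested. The values are given with the marker genes at the end, and the part of other cells was not tested.

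KRAB zinc finger proteins are DNA-binding repressors. Their row of zinc fingers reads a stretch of DNA, often inside an endogenous retrovirus, and their KRAB domain binds TRIM28, which brings in the histone methyltransferase SETDB1, HP1 proteins and DNA methyltransferases. The genes arise by tandem duplication, so neighbours in a cluster can be close copies, and the mouse clusters on these chromosomes differ between strains and species. In most cells a gene's transcribed body is highly methylated, while a CpG-rich start is not.

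By symbol or synonym, 50 protein-coding zinc finger genes lay in the windows, 7 on chromosome 2, 17 on chromosome 4 and 26 on chromosome 13, against 440 elsewhere. Neither set was checked for a KRAB domain, so both can hold zinc finger genes of other kinds. A further 34 of the 102 protein-coding genes of the windows are predicted genes with a Gm number, 21 of them on chromosome 2, and were not counted as zinc finger genes because the annotation used does not name them so. RefSeq promoter windows, from 250 bases before to 50 bases after the annotated start, were found for 42 of the 50. At some genes the start used lies well inside the annotated gene. Rex2 begins at position 146973610 and its promoter window at 147021600. Zfp981 begins at 146502000 and its window at 146514670. The promoters below are shown because their methylation spans the whole range seen in the clusters and because several are near-identical copies. All letters are RefSeq GRCm38.p6, 5′ to 3′ on the gene's strand, with each CG in capitals.
Zfp966 (chr2:175931051-175931350, minus strand): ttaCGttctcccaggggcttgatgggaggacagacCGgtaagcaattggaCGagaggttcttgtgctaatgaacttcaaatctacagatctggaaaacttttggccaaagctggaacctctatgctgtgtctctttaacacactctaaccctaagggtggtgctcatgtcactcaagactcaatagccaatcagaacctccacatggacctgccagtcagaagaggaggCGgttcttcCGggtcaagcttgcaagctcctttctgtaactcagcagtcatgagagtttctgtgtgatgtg
Zfp600 (chr4:146156577-146156876, plus strand): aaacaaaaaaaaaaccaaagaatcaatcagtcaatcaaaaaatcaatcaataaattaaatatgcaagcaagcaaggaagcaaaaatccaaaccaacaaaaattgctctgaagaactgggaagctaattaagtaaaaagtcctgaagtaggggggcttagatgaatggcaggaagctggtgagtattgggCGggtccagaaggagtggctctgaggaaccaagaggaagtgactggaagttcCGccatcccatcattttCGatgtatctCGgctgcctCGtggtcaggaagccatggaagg
Zfp979 (chr4:147642459-147642758, minus strand): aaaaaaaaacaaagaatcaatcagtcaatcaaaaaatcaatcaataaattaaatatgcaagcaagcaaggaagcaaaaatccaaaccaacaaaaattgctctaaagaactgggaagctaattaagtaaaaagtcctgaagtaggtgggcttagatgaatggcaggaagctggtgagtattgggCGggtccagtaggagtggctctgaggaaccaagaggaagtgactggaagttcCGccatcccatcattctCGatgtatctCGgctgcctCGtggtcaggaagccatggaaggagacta
Zfp981 (chr4:146514670-146514969, plus strand): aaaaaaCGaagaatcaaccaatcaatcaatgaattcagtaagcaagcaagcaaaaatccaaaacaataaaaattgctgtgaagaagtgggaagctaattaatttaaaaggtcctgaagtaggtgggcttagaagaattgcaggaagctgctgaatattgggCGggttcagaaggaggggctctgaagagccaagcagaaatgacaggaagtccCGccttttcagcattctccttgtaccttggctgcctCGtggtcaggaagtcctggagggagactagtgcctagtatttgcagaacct
Zfp988 (chr4:147305354-147305653, plus strand): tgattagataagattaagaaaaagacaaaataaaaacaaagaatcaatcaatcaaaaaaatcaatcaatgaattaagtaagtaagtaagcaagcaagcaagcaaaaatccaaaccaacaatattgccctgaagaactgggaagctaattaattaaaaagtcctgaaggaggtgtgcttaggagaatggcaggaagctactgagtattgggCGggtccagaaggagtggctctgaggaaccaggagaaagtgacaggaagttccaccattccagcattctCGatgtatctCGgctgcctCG
Zfp993 (chr4:146512599-146512898, plus strand): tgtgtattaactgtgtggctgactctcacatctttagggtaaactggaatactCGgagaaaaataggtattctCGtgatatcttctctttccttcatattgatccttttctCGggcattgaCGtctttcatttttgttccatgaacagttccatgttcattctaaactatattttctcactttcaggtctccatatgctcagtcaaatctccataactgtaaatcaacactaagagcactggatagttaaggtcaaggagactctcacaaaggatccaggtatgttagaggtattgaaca
Zfp748 (chr13:67553103-67553402, minus strand): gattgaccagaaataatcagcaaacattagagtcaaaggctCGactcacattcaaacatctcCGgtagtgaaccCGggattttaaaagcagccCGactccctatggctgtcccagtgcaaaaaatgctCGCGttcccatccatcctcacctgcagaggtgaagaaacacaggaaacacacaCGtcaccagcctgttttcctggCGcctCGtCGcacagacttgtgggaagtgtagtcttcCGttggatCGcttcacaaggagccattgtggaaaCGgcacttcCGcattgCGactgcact
Zfp708 (chr13:67097927-67098226, minus strand): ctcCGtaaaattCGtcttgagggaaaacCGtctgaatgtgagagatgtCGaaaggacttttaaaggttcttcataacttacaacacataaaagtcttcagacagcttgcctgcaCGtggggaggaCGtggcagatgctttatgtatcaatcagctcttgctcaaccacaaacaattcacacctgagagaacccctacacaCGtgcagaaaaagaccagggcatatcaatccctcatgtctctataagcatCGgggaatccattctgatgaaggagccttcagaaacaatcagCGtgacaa

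The 3 clusters differed in how alike their promoters are. Compared without gaps at the best shift of up to 50 bases, the median promoter was 100% identical to its nearest zinc finger promoter on chromosome 2, 85.0% on chromosome 4 and 60.1% on chromosome 13. On chromosome 2 the sequence shown for Zfp966 is also that of Zfp967. On chromosome 4, Zfp600 and Zfp979 were 98.3% identical, and Zfp979 and Zfp988 were 78.4% identical. Zfp993 had no near copy, at 36.6% to its nearest zinc finger promoter. The chromosome 2 promoters held 32 CpGs in their letters, and the files listed 0 of them in any library. On chromosome 4, 45 of 76 were listed, and on chromosome 13, 102 of 184. Reads from near-identical copies can be placed on the wrong copy or dropped, so levels at the copies are uncertain. The chromosome 2 promoters were not measured, and the reason was not tested. Zfp972, only 66.9% identical to its nearest promoter, had 0 CpGs listed as well. The near-identical Zfp600 and Zfp979 each had all 5 of their CpGs listed.

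The promoters of the chromosome 4 cluster carried methylation in sperm and those of the chromosome 13 cluster carried little. Summed over every listed CpG of the 300-base windows, methylation in the chromosome 4 cluster was 53.2% and 62.9% in old replicates 1 and 2, against 47.4%, 42.1% and 51.8% in young replicates 1 to 3. In the chromosome 13 cluster it was 5.48% and 6.11% in the old replicates, against 8.30%, 14.8% and 13.3% in the young replicates. Zinc finger promoters elsewhere stood at 7.27% and 11.0% in old and at 10.3%, 11.0% and 9.03% in young sperm. The chromosome 4 level was above the other groups in every library. Over libraries it averaged 51.5% ± 7.72 (SD, n = 5), against 9.60% ± 4.23 (SD, n = 5) on chromosome 13. The difference of 41.9 points had the smallest p that sign flips over 5 libraries allow (two-sided exact permutation test, p = 0.0625, 0.0938 after Benjamini-Hochberg adjustment over 6 promoter comparisons, higher in 5 of 5 libraries). This difference was 31.1 points with each promoter at equal weight and 36.6 points within 1000 bp of the start. The median promoter was at 33.1% on chromosome 4 and at 0% on chromosome 13, with libraries pooled. The contrast with zinc finger genes elsewhere differed with the promoters taken and their weight. Over all their promoters the chromosome 4 cluster was 41.8 points higher (exact permutation test, p = 0.0625). Among promoters with 3 to 6 CpGs in their letters, with reads summed, it was 14.3 points lower, at 52.2% ± 8.45 against 66.5% ± 14.1 elsewhere (SD, n = 5 each, exact permutation test, p = 0.125). Promoter by promoter the order was the other way: those of that size were at a median of 48.8% in the chromosome 4 cluster, over 9 with reads, and of 20% elsewhere, over 23 with reads. In the chromosome 13 cluster, promoters with 3 to 6 CpGs were at 10.3% ± 10.2 (SD, n = 5), 41.9 points below those of the chromosome 4 cluster (exact permutation test, p = 0.0625) and 56.2 points below those elsewhere (p = 0.0625, exact permutation test). These comparisons were added after the data were seen. The 22 chromosome 13 promoters had few reads, 88 to 229 summed per library, and single CpGs there were often listed in 1 or a few libraries. The 7 of them with 3 to 6 CpGs had 97 and 94 reads in old and 79, 27 and 25 in young libraries. Their median was 0% with libraries pooled, against the 20% elsewhere.

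Promoter by promoter, 18 of the 20 chromosome 13 promoters with reads were below 20%, and 2 of the 11 on chromosome 4. Zfp748, with 15 CpGs, all of them listed, read 0% in old replicate 1 and 0%, 3.12% and 0% in young replicates 1 to 3, over 125 reads in all, and was not listed in old replicate 2. Zfp708, whose protein binds a retroviral repeat class in mouse, was at 90% and 100% in old and 100% in each young library, over 53 reads, and the other promoter not below 20%, Rslcan18, was listed only in young replicate 2, at 80% of 5 reads. On chromosome 4, Zfp993 was at 93.5% and 94.6% in old sperm, against 95%, 100% and 89.6% in young sperm, over 472 reads. Zfp988 was at 91.5% and 89.3%, against 92.5%, 80.3% and 89.3%, in the same order. Zfp981, whose promoter lies next to that of Zfp993, was at 18.3% and 32.2% in old, against 14.8%, 17.6% and 33.4% in young libraries, over 1028 reads. Its 4 CpGs lay between 22.1% and 33.8% with libraries pooled. Zfp981 was far below its neighbour Zfp993 in all 5 libraries. Zfp979 was at 47.8% and 57.9% in old sperm, against 36.5%, 55.6% and 51.2% in young sperm. Its near-identical copy Zfp600 was at 22.4% and 41.2% in old, against 32.7%, 7.27% and 31.2% in young sperm. The 2 promoters with the most CpGs that had reads on chromosome 4, Zfp982 with 16 and Zfp984 with 9, were at 6.25% over 16 reads and 0% over 28 reads.

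**Figure D1:**
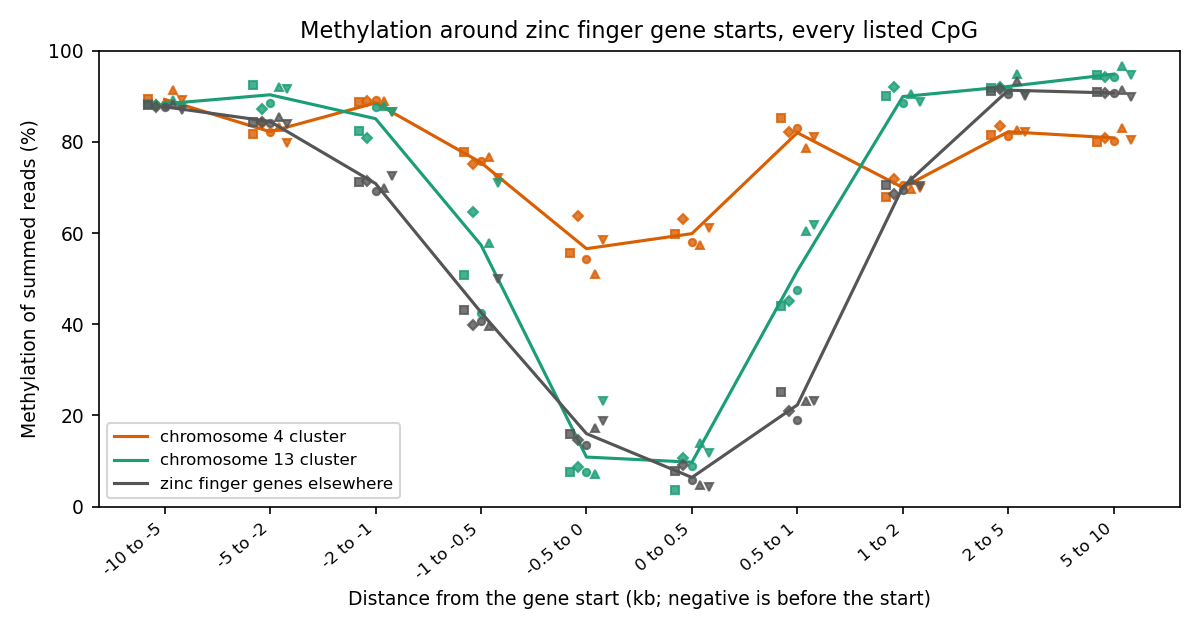
Methylation (%) of the summed reads at every listed CpG against distance from the gene start (kb), for zinc finger genes of the chromosome 4 and chromosome 13 clusters and elsewhere; lines are means of 5 libraries and points are single libraries, old replicates left of young ones in each bin. Within 0.5 kb before the start the chromosome 4 genes stand at 56.6%, the chromosome 13 genes at 10.9% and the others at 16.0%.

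The dip in methylation around the start was shallow on chromosome 4 and deep on chromosome 13, as the plot against distance shows. In the 500 bp after the start the chromosome 4 genes were at 59.7% and 63.1% in old and at 58.1%, 57.4% and 61.1% in young libraries. The chromosome 13 genes were at 3.55% and 10.7% in old and at 8.84%, 13.9% and 11.8% in young libraries there, and zinc finger genes elsewhere at 7.92% and 9.12% in old and 5.90%, 4.71% and 4.41% in young libraries. No chromosome 13 or other value reached a chromosome 4 value in that interval. Between 1 and 2 kb after the start the chromosome 13 genes were at 89.95% ± 1.38, the chromosome 4 genes at 69.99% ± 1.38 and those elsewhere at 70.1% ± 1.19 (SD over 5 libraries). From 5 to 10 kb into the genes the means were 94.9%, 80.9% and 90.7%, in the same order. At CpGs common to all libraries the chromosome 13 dip could not be seen, since 0 of its CpGs within 500 bp before a start and 1 within 500 bp after were common. The common set thus leaves out the unmethylated chromosome 13 starts.

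With common CpGs within 1000 bp of the start, 11 of the 50 genes had a measured start, 1 on chromosome 2, 9 on chromosome 4 and 1 on chromosome 13. The 3 lowest on chromosome 4 were Zfp981, Zfp979 and Zfp600, and the 3 highest Zfp985, Zfp988 and Zfp993. Zfp993 was at 92.5% and 90.1% in old, against 90%, 95.1% and 84.3% in young sperm, with young libraries on both sides of the old ones. Zfp988 was at 90.1% and 89.3%, against 90.7%, 88.0% and 86.6%, and Zfp985 at 90.8% and 90%, against 86.9%, 83.3% and 87.2%. Zfp972, the only chromosome 2 gene with a measured start, was the lowest of all 11, at 27.0% and 29.7% in old and at 38.3%, 24.3% and 53.7% in young sperm. Its 8 common CpGs lay 500 to 1000 bp before the start, in a tile that overlaps the pseudogene Gm14327. No CpG closer to the start was common to all libraries. In the 500 bp after the starts of 2 chromosome 2 genes, 10 CpGs were listed, only in young replicate 3, at 3.51% over 57 reads. Zfp640 on chromosome 13 was at 81.8% and 81.7%, against 81.8%, 84.3% and 87.5%, over 5 common CpGs, none of them in its promoter window. That promoter window was nearly unmethylated where it was listed, at 7.69% in old replicate 1 and 8.33% in young replicate 2. It was not listed in the other libraries, so the start value of Zfp640 describes CpGs beside its promoter. The 11 starts averaged 69.7% ± 2.08, against 31.7% ± 3.19 over 74 zinc finger starts elsewhere (SD over 5 libraries, exact permutation test, p = 0.0625, 0.0660 after adjustment over 19 comparisons). The gap of 38.1 points was 25.8 where every CpG a library covers was used, which brings in 19 starts of the clusters against 134 elsewhere. Of the 11 starts 9 lay on chromosome 4, so the gap mainly describes that cluster. Several of these 9 genes read lower in their promoter windows, over every listed CpG with libraries pooled. Zfp985 was at 30.9% there, against a start mean of 87.6%, Zfp600 at 25.2% against 58.5%, and Zfp981 at 24.6% against 52.1%. Rex2 was at 33.1% there, against 62.6%. Zfp993, at 93.9% against 90.4%, and Zfp988, at 89.2% against 88.9%, were not lower. Starts of the Vmn2r genes, which encode vomeronasal type 2 receptors and also lie in tandem clusters, were close to those of the zinc finger clusters, at 72.7% ± 0.941 over 39 genes.

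**Figure D2:**
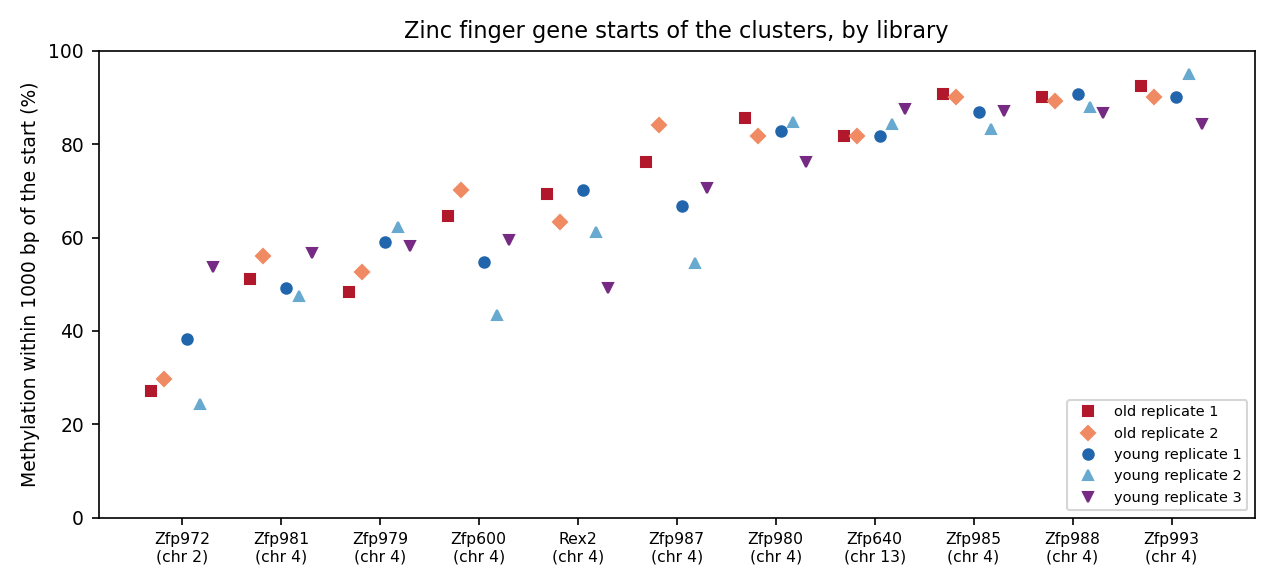
Methylation (%) within 1000 bp of the start of the 11 zinc finger genes with a measured start, in order of their mean, with old replicates left of young ones. Zfp972 lies lowest and Zfp993 highest, and the old libraries lie above all young ones at Zfp600, Zfp987 and Zfp985 and below them at Zfp979.

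Gene bodies separated the clusters too. On chromosome 13 the 23 measured bodies had a median of 95.8% and a range of 85.3% to 98.4%, and on chromosome 4 the 17 measured bodies had a median of 86.8% and a range of 64.9% to 95.1%. Some bodies overlap, so the same CpGs can count for several genes. On chromosome 4, Zfp988 and Zfp991 lie within Zfp978, and Zfp981 and Rex2 overlap Zfp993. The chromosome 4 bodies averaged 86.2% ± 0.588 in old (SD, n = 2) and 85.8% ± 1.27 in young sperm (SD, n = 3). They were 3.72 points below zinc finger gene bodies elsewhere (exact permutation test by sign flips, p = 0.0625, lower in 5 of 5 libraries). Zfp979 had the lowest body, at 57.1% and 66.4% in old, against 65.1%, 67.7% and 67.9% in young sperm, over only 8 CpGs. Zfp991 followed, at 73.1% and 77.6%, against 73.8%, 75.03% and 75.1%. At the other end of the same cluster Zfp933 was at 94.9% and 94.0%, against 95.6%, 96.1% and 94.8%. On chromosome 13, Zfp369 stood at 98.7% and 97.4%, against 98.9%, 98.6% and 98.1%, and Rslcan18, of the family of Rsl1, a regulator of sex-limited liver genes in mouse, at 94.5% and 92.8%, against 94.6%, 95.7% and 94.6%. The 41 bodies of the clusters averaged 91.1% ± 0.632, against 89.7% ± 0.532 for 350 zinc finger bodies elsewhere and 76.3% ± 1.44 for 116 Vmn2r bodies (SD over 5 libraries, exact permutation tests, p = 0.0625 each).

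**Figure D3:**
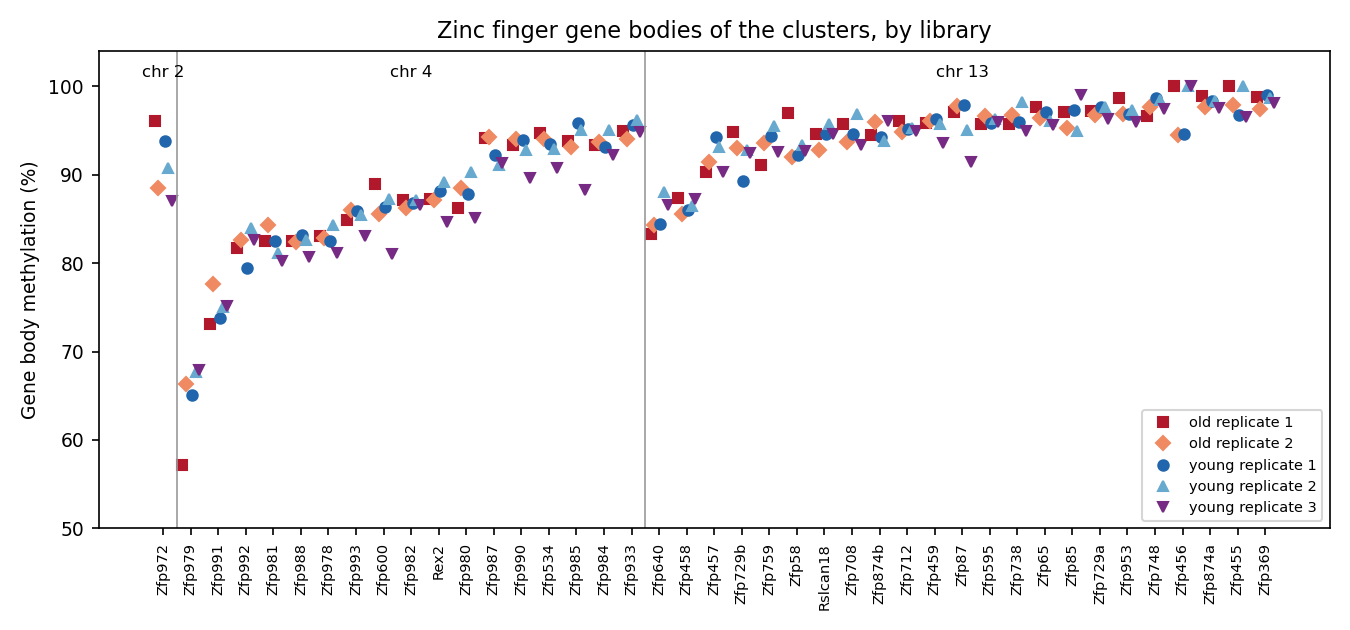
Methylation (%) of the bodies of the 41 measured zinc finger genes, grouped by chromosome and ordered by mean, with old replicates left of young ones. Chromosome 13 bodies lie between 85.3% and 98.4% by mean and chromosome 4 bodies between 64.9% and 95.1%.

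With each tile counted once, the chromosome 4 cluster had the lowest mean tile methylation of the 3. Mean tile methylation there was 85.0% and 85.4% in old, against 84.9%, 85.7% and 84.0% in young libraries. On chromosome 13 it was 88.1% and 88.4%, against 88.3%, 88.7% and 87.0%, and on chromosome 2 it was 91.1% and 91.2%, against 90.6%, 90.8% and 89.2%. The rest of the tiles were at 89.9% and 89.8% in old and 89.8%, 90.1% and 89.0% in young libraries. Relative to the rest, chromosome 4 was 4.73 points lower, chromosome 13 was 1.63 points lower and chromosome 2 was 0.856 points higher, each in 5 of 5 libraries (exact permutation tests by sign flips, p = 0.0625 each, 0.0660 adjusted). Chromosome 4 was also 3.10 points below chromosome 13 (p = 0.0625, exact permutation test), but this order turned with the setting. Chromosome 4 was 1.74 points above chromosome 13 in tiles with at least 5 common CpGs (exact permutation test, p = 0.0625) and 0.978 points above it with tiles weighted by coverage (exact permutation test, p = 0.125), and 0.765 points below it with at least 10 reads a CpG. Weighted by coverage, the differences from the rest were -1.26 points on chromosome 4 (exact permutation test, p = 0.125), -2.24 on chromosome 13 and 6.13 on chromosome 2. The chromosome 13 value rested on tiles with many CpGs. Its 23 tiles with at least 10 common CpGs averaged 57.7%, against 76.7% for 45 on chromosome 4 and 81.9% for the rest, and with at most 9 CpGs chromosome 13 was 0.198 points above the rest. With at least 5 CpGs it was 6.34 points below the rest, and with at least 10 reads a CpG 3.47 points below. At common CpGs, all with at least 5 reads in each library, the median was 18.2 reads per CpG in a cluster tile and 16.3 in the rest. These medians do not compare depth over all CpGs. Common CpGs made up 40.7% of those listed on chromosome 4, 21.4% on chromosome 13, 20.9% on chromosome 2 and 17.3% over all chromosomes.

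**Figure D4:**
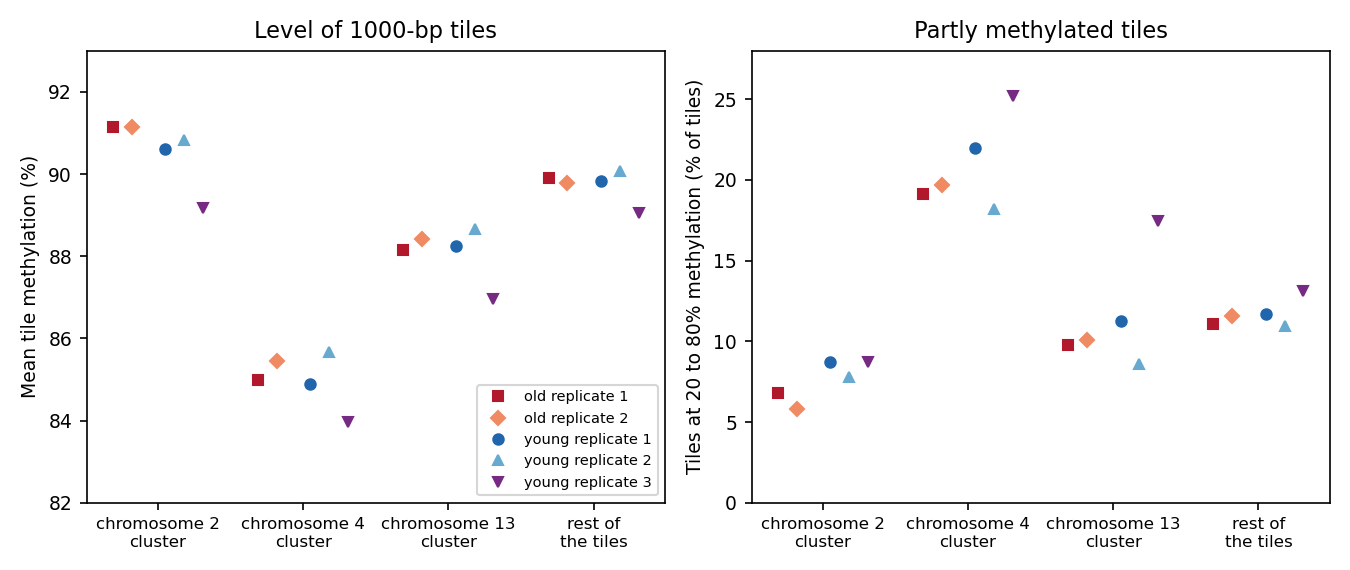
Left, mean methylation (%) of 1000-bp tiles in each cluster and in the rest of the tiles, on an axis that starts at 82%; right, tiles at 20 to 80% methylation as a share (%) of tiles; points are libraries, old left of young. The chromosome 4 cluster is lowest on the left, with each library between 84.0% and 85.7%, and highest on the right.

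Partly methylated tiles, at 20 to 80%, were most frequent on chromosome 4. By the mean of the libraries they made up 99 of 528 tiles (18.8%) on chromosome 4, 34 of 338 (10.1%) on chromosome 13, 7 of 103 (6.80%) on chromosome 2 and 11.2% of the rest. In single libraries the chromosome 4 share was 19.1% and 19.7% in old and 22.0%, 18.2% and 25.2% in young sperm. It exceeded the share of the rest by 9.16 points on average (exact permutation test by sign flips, p = 0.0625). Tiles below 20% were rare, 5 each on chromosomes 4 and 13 and 0 on chromosome 2, where 0.723% of the rest were as low. Along the clusters, the lowest 100-kb stretch with at least 10 tiles on chromosome 4 was chr4:147100001-147200000, which holds Zfp978 and Zfp991, at 74.7%. On chromosome 13 it was chr13:66200001-66300000, at 70.8%, with no named zinc finger gene in it. The 8 stretches of chr13:67000001-67800000, where the array of Zfp genes lies, were between 84.8% and 96.2%.

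By distance, tiles within 1000 bp of a zinc finger gene start were lower than tiles over 10000 bp from any such gene. The 14 tiles near starts on chromosome 4 averaged 77.6% and 78.7% in old, against 73.5%, 71.8% and 74.2% in young libraries, with both old libraries above the young ones. The 180 distant tiles there were at 83.8% and 84.2%, against 83.5%, 84.2% and 83.9%. The near tiles were 8.77 points lower (exact permutation test by sign flips, p = 0.0625, 0.0660 adjusted, 5 of 5 libraries). With at least 10 reads a CpG they were 5.16 points lower. On chromosomes 2 and 13 only 1 tile each lay near a start, so the class describes chromosome 4. Over all 3 clusters the 16 near tiles differed from the 506 distant ones by -13.02 points (p = 0.0625, exact permutation test), and by -8.25 with at least 10 reads a CpG. Within genes the clusters parted. The 70 tiles inside chromosome 13 genes averaged 95.2%, against 85.9% for the 229 distant tiles, while on chromosome 4 the 277 inside tiles averaged 85.9% and the 180 distant tiles 83.9%. Partly methylated tiles numbered 1 of 70 inside chromosome 13 genes and 45 of 277 inside chromosome 4 genes. By annotation, the 67 chromosome 4 tiles that overlap pseudogenes were the lowest class of that cluster with at least 10 tiles, at 80.9%, and the 23 that overlap other protein-coding genes the highest, at 92.1%.

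The lowest tile of the clusters lay far from a zinc finger gene. The tile chr4:145361001-145362000, 149258 bp from Zfp990, was at 7.81% and 6.57% in old, against 6.50%, 6.74% and 6.68% in young libraries, over 16 CpGs and 948 to 1169 reads a library. All 5 libraries lay within 1.30 points of each other. The mean of this tile was 6.86%, and 4.83% with the upper coverage limit, which takes out CpGs with very many reads. On chromosome 13, chr13:66640001-66641000 was at 14.6% and 5.50% in old, against 15.5%, 6.56% and 11.6% in young sperm, and chr13:66542001-66543000 at 11.7% and 19.3%, against 13.9%, 6.34% and 26.7%. Neither overlaps an annotated gene. Inside a zinc finger gene the lowest was chr4:147125001-147126000 in Zfp978, at 7.55% and 18.99%, against 20.8%, 12.8% and 11.4%. On chromosome 2 the lowest were chr2:177926001-177927000, whose 8 CpGs are those of the Zfp972 start window, and chr2:177173001-177174000. The latter was at 36.0% and 40.6% in old and 42.2%, 12.5% and 34.5% in young sperm. The tile with the widest range was chr4:146750001-146751000 inside Zfp993, at 8.11% and 17.2% in old, against 24.5%, 14.3% and 59.6% in young libraries. Young replicate 3 stood apart there, over 42 to 74 reads a library.

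Between the ages the mean levels of the clusters differed by under 1 point. Old sperm averaged 86.9% ± 0.247 (SD, n = 2) and young sperm 86.5% ± 0.857 (SD, n = 3) over all 969 tiles, which is 0.414 points apart (exact permutation test over libraries, two-sided, p = 0.8). On chromosome 2 the difference was 0.942 points (p = 0.3), with both old libraries above the 3 young ones, on chromosome 4 it was 0.365 (p = 0.7) and on chromosome 13 it was 0.328 (p = 0.9), by the same exact permutation test, whose 10 splits allow no p under 0.1. After adjustment over the 4 values each p was 0.9. Without young replicate 3, the lowest library in every cluster, the difference was -0.0711 points on chromosome 4, -0.168 on chromosome 13 and -0.0519 over all 3, while on chromosome 2 it was 0.428.

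No tile of the clusters passed the test of old against young. A quasi-binomial model, its dispersion moderated across tiles as in limma, called 0 of the 969 tiles at an adjusted p under 0.05 and at least 10 points, where 2 of all 321659 tiles (0.000622%) were called. At an unadjusted p under 0.05 there were 35 tiles (3.61%), against 3.55% of all tiles, with 21 higher in old sperm (all tiles, 2.05%) and 14 lower (all tiles, 1.5%). limma called 0 as well and gave 31 (3.20%) at an unadjusted p under 0.05, against 4.29%. Old and young libraries did not overlap in 148 tiles (15.3%), against 17% of all tiles, and 546 tiles (56.3%) were higher in old sperm, against 52.5%. These shares are near those of all tiles. The smallest unadjusted p on chromosome 13 was at chr13:66715001-66716000, which overlaps the lncRNA gene Gm52033, with 18.8% and 16.7% in old, against 48.8%, 31.2% and 37.6% in young libraries. Both old libraries lay below the young ones, by 21.5 points on average, with an adjusted p of 1. On chromosome 4 it was at chr4:146066001-146067000, which overlaps no annotated gene, with 54.2% and 68.3% in old, against 36.3%, 36.2% and 36.7% in young libraries. Both old libraries lay above, by 24.8 points, and its adjusted p was also 1. On chromosome 2 it was at chr2:177237001-177238000, with 100% in both old libraries, against 93.3%, 89.2% and 94.3%.

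**Figure D5:**
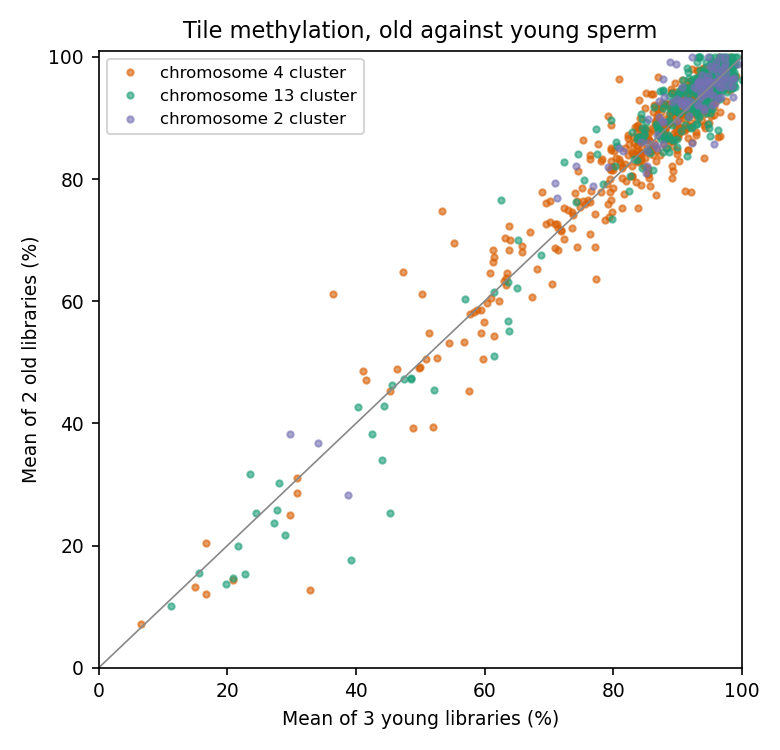
Mean methylation (%) of each of the 969 cluster tiles in the 2 old libraries against the 3 young ones, with the line of equal values. Most tiles lie near the line at high levels, and the tile at 36 to 37% in young libraries and 54.2% and 68.3% in old ones is among the farthest above it.

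Zinc finger starts and bodies gave no call either. The same model called 0 of the 11 starts, where 0 of 4113 starts in all (0%) were called, and 1 had an unadjusted p under 0.05 (9.09%, against 2.31%). This was Zfp987, at 76.2% and 84.1% in old, against 66.7%, 54.5% and 70.6% in young sperm, a difference of 16.2 points with an adjusted p of 1. Zfp600 was at 64.6% and 70.2%, against 54.7%, 43.5% and 59.6%, a difference of 14.8 points. Zfp979, the near copy of Zfp600, ran the other way, at 48.4% and 52.7%, against 59.0%, 62.2% and 58.3%, a difference of -9.29 points. At each of these 3 starts the old and young libraries did not overlap, as at 4 of the 11 starts (36.4%), against 15% of all starts. In the window of 250 bp before to 50 bp after the start the Zfp979 difference turned to 3.40 points. Of the 41 bodies 0 were called, where 0 of 23605 genes (0%) were, and 2 had an unadjusted p under 0.05 (4.88%, against 1.72%). They were Zfp987, at 94.1% and 94.2% in old, against 92.2%, 91.1% and 91.3% in young sperm, and Zfp981, at 82.5% and 84.4%, against 82.5%, 81.1% and 80.2%. Old and young libraries did not overlap in 5 of the 41 bodies (12.2%), against 14% of all bodies. limma gave 0 starts (3.62% of all starts) and 0 bodies (3.4% of all bodies) of the clusters at an unadjusted p under 0.05. On chromosome 13 the smallest p among bodies were at Zfp748, 1.11 points lower in old sperm, and Zfp953, 1.011 points higher. Without old replicate 1 the differences were -0.601 points at Zfp748 and 0.0970 at Zfp953, without old replicate 2 Zfp953 was at 1.92, and without young replicate 3 it was at 0.629. The Zfp987 body difference of 2.66 points was 1.12 with at least 10 reads a CpG, and the Zfp981 body difference of 2.14 points was 1.21 without old replicate 2.

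One young library moved with the levels of low tiles. In the 19 cluster tiles whose old mean was 20 to 40%, methylation was 27.8% and 31.5% in old, against 28.6%, 26.6% and 43.5% in young replicates 1 to 3, and young replicate 3 was the highest library in 16 of them. In the 574 tiles at 90% or more, the same library was the lowest on average, at 92.3%, against 94.4% and 94.9% in the other young and 94.9% in each old library. The rest of the tiles showed the same order. Starts of the 9 maternally imprinted genes, unmethylated in mature sperm as background, were measured for 3, Nnat, Peg3 and Snrpn. They averaged 45.9% and 42.2% in old, against 41.3%, 36.0% and 48.7% in young libraries, with Nnat at 18.3% and 18.1%, against 14.7%, 9.86% and 25.3%. Snrpn was the highest of the 3, at 78.9% and 76.3% in old, against 67.5%, 84.96% and 73.3% in young libraries, and Peg3 was at 40.6% and 32.4%, against 41.7%, 13.3% and 47.6%. None of the 3 was at 0. Of 6 germline genes, whose starts are unmethylated in sperm as background, only Ddx4 had a measured start, over 47 CpGs. It was at 90.2% and 92.2%, against 85.9%, 73.5% and 91.3%, unlike that background. These windows hold the common CpGs within 1000 bp of the annotated start, only 5 of them at Snrpn. Whether they are the CpGs of the germline promoter or of the imprinted region was not tested. Of 5 leukocyte genes 1 start was measured, Cd79a, at 72.5% and 77.5%, against 52.9%, 38.2% and 83.6%, and of 6 epididymal genes 0. The part of other cells in the values of the clusters was not tested.

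The genes through which KRAB zinc finger proteins silence DNA showed no called difference. Of 26 such genes 5 starts and 22 bodies were measured, and 0 were called. The starts differed by a median of -0.506 points, 2 higher and 3 lower in old sperm, and the bodies by -0.283 points, 10 higher and 12 lower. Over all genes the medians were 0.0713 points for starts and 0.0917 points for bodies. Zfp809, which silences a murine leukaemia virus, had the largest body difference, at 88.6% and 92.5% in old, against 82.95%, 82.1% and 88.1% in young sperm. Cbx1, an HP1 protein, was at 85.7% and 87.2%, against 93.6%, 90.6% and 92.9%, over 5 CpGs. Among the 5 measured starts Morc3 differed most, by -7.36 points. It was at 33.5% and 28.6% in old, against 42.0%, 21.4% and 51.9%, with young libraries on both sides of the old ones. At the start of Setdb1, the histone methyltransferase, old sperm had 31.1% and 35.5%, against 30.2%, 34.7% and 29.4%.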

How the data were processed

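Bisulfite reads of sperm DNA were available for 2 old and 3 young libraries. The submitters' processing notes name methylKit 1.4.0, Bismark 0.16.3 and Trim Galore 0.4.3, and the mm10 build; duplicate removal and multiply placed reads are not described there. For each cytosine the deposited tables give, per the file headers, the read count (coverage) and the percent of reads with C and with T. The lowest deposited count was 5 reads, and summed reads were 67774094 to 97769462 a library. Percent times coverage gave whole reads for 100% of cytosines, to within 0.005 percentage points of the deposited percent. Incomplete conversion reads as methylation.

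Strands were summed. Reads per tile, gene body and start (1000 bp either side) were tested with a quasi-binomial logistic model, with dispersion moderated as in limma 3.58.1 (R 4.3.3) and not under 1, fitted and Benjamini-Hochberg adjusted over all tiles or genes, after tests on simulated data. limma used log2((methylated + 1)/(unmethylated + 1)) of the deposited counts. Library means were compared with exact permutation tests. Python 3.11.15, numpy 2.4.6, pandas 2.3.3 and matplotlib 3.10.9 were used. Gene positions and promoter letters came from RefSeq GRCm38.p6, the same build. No protein sequences were at hand, so zinc finger genes were taken by symbol. The letters at listed positions in promoter windows were CG for 60956 of 60963 CpGs.

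The clusters, lists and alternatives were chosen with earlier results of these data known. Named tiles were, in each cluster, by smallest p the 3 higher and 3 lower in old sperm, the 2 lowest and the 2 with the widest range; named genes the 3 lowest and 3 highest starts and the 2 bodies with the smallest p. The report names a part of these. Other genes and stretches named for their level, and the printed promoters, were chosen after their values were seen. Alternatives were a minimum of 10 reads, an upper coverage limit, at least 5 CpGs, 500-bp and 2000-bp tiles, every CpG a library covers, weighting by coverage, limma, a binomial model, no minimum difference, other start and distance windows, the replicate number and each library left out. Promoter comparisons, tiles with at most 9 CpGs, chromosome 4 against chromosome 13 and distance from any protein-coding gene were added after seeing the data.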

Additional observations from a re-analysis of the deposited data

How the results depend on the processing

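Old minus young differences of mean tile methylation on chromosomes 4 and 13 and over all 3 clusters turned sign where young replicate 3 was left out; on chromosome 2 the difference was then 0.428, of 0.942 with all libraries. With 1 library left out they lay between -0.0711 and 0.776 points on chromosome 4, between -0.168 and 0.675 on chromosome 13 and between -0.0519 and 0.792 over all 3 clusters and between 0.428 and 1.26 on chromosome 2, where at least 10 reads gave 0.269. With at least 5 CpGs the chromosome 13 difference was -0.0647. Chromosome 13 minus the rest turned to 0.198 points with at most 9 CpGs, and chromosome 4 minus chromosome 13, at -3.10, to 1.74 with at least 5 CpGs and 0.978 weighted by coverage. The binomial model, which ignores the spread between libraries, called 3 tiles and 2 starts. Promoters of the chromosome 4 cluster minus those elsewhere turned to -14.3 points with 3 to 6 CpGs. Promoters of the chromosome 13 cluster minus those elsewhere were at -0.124 points, turned to 8.23 with each promoter at equal weight and to 7.83 within 1000 bp of the start, and lay between -1.23 and 1.06 with 1 library left out. With 1 library left out the differences lay between -0.155 and 4.24 points at the Zfp980 start, -1.25 and 4.17 at the Zfp993 start and -2.08 and 5.54 in the Zfp972 body. The Zfp993 start turned to -0.809 and the Zfp979 start to 3.40 in the 250 and 50 bp window, and the Zfp953 body to -0.610 with every CpG. The causes were not tested.

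Old and young libraries share the numbers 1 and 2, and nothing says that these pair them. Deviations of same-numbered libraries correlated at 0.0879 and -0.0633 over the cluster tiles. With the replicate block the model called 0 tiles, 0 starts and 0 bodies of the clusters. The block gave -0.0711 points on chromosome 4, -0.168 on chromosome 13 and -0.0519 over all 3, and -0.155, -1.25 and -0.0235 for the Zfp980 start, the Zfp993 start and the Zfp972 body, as without young replicate 3, which it leaves out of the means. Depth limits the promoters, where many CpGs were listed in 1 library.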
